A study of Mus musculus with 2 samples.

Results

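The genes described here are 38 markers of dividing cells, 17 of S phase (Mcm2, Mcm3, Mcm4, Mcm5, Mcm6, Mcm7, Pcna, Tyms, Rrm1, Rrm2, Gins2, Slbp, Cdc6, Dut, Tk1, Fen1, Uhrf1) and 21 of G2 and mitosis (Mki67, Top2a, Birc5, Cenpf, Cenpe, Cenpa, Ube2c, Cdk1, Ccnb1, Ccnb2, Ccna2, Cdc20, Cdca8, Cdca3, Aurka, Aurkb, Bub1, Tpx2, Nusap1, Kif11, Hmmr). They were taken by symbol from the 27998 genes of the feature tables, where each of the 38 had 1 entry. The samples are 2 droplet single-cell RNA libraries made with the 10x Genomics 3' v3 chemistry from live CD45+ cells of B16F10 tumors, a mouse melanoma line grown under the skin of C57BL/6 hosts for 14 days. The control library comes from Usp18f/f mice, whose Usp18 gene carries loxP sites. The other comes from Usp18f/f LysM-Cre mice, in which Cre, driven from the Lyz2 locus of myeloid cells, was to remove Usp18, the protease that takes ISG15 off proteins and restrains type I interferon signalling. Cells of 4 tumors were pooled per group before a single library was made, so no difference between the groups has a replicate check, no test was run, and all intervals cover counting error only. In mononuclear phagocytes, Usp18 was not lower under the knockout label, with 18.5 UMIs per 1e+06 UMIs of the class (CPM) in the control and 96.4 in the other library. Which exons were to be deleted is not given in the sources used here, and 3' tags outside them would not check the deletion. Lyz2, the locus that carries Cre, had 8739 CPM in the control and 16.9 in the other library. The second library is called the library labelled knockout, and a direction between the libraries holds for those labels only.

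Cells copy their DNA in S phase and divide in mitosis after a gap called G2. The transcripts of the replication machinery rise under E2F factors as cells enter S phase, and those of the mitotic machinery rise later, under complexes that bind CHR and CCAAT elements. In tumors, macrophages and T cells can divide in place, whereas neutrophils reach the tissue as cells that no longer divide.

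The control library held 7754 barcodes and 43412346 UMIs, the library labelled knockout 6063 barcodes and 48167632 UMIs, with medians of 2600 and 4455 UMIs per barcode, and 8 barcode sequences occurred in both. After filters on genes, mitochondrial UMIs and doublets, 6657 and 5451 barcodes were kept, of which 99 and 66 fitted no marker gate. Names of classes rest on marker transcripts alone and mean "like". The 38 genes had 86775 UMIs in the control and 103660 in the library labelled knockout. Both pools mixed hosts of both sexes in unequal parts, with 1476 kept barcodes with Xist and no Y-linked UMI against 2573 with the reverse in the control, and 3509 against 566 in the library labelled knockout. Values in either or both of the 2 kinds of barcode are given beside the differences between libraries in macrophages, monocytes, cDC1, T cells, CD8 T cells, NK cells and other CD4 T cells.

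Promoter words differed between the S-phase and the G2/M genes. RefSeq windows (GRCm38.p6) from 250 bases before to 50 after the start were found for 15 S-phase genes (all but Mcm4 and Gins2) and 18 G2/M genes (all but Ccna2, Tpx2 and Aurkb), and for 27025 genes in all. Words of the E2F type (the word TTCCCGC, the word TTGGCGC, the word TTCGCGC or the word TTGCCGC, on either strand) were present in 8 of the 15 S-phase windows (53.3%), 4 of the 18 G2/M windows (22.2%) and 9.69% of all windows. Words of the CHR type (the word TTTGAA or the word TTCGAA, on either strand) were present in 3 S-phase windows (20%), 14 G2/M windows (77.8%) and 19.4% of all. In each of those 14 a CHR word lay between 100 bases before and 50 after the start, which held for 8.68% of all windows. Mki67, Top2a and Ccnb2 had further CHR words outside that range. CCAAT, on either strand, was found in 10 S-phase windows (66.7%), 16 G2/M windows (88.9%) and 37.9% of all. A match describes these letters only. The counts above are for the 300-base windows, and fewer words lay in the 120 bases before the start. There, E2F words were found in Mcm6, Rrm1 and Uhrf1 only among S-phase genes, and in Mki67 and Ccnb1 among G2/M genes. CHR words were found there in Mki67, Top2a, Ube2c, Cdk1, Cdc20 and Kif11 only among G2/M genes, and in Mcm2 among S-phase genes. These 120 bases are printed for 8 genes picked as examples, most of them with such words. They run 5′ to 3′ on the strand of the gene, with words of the 3 types in capitals. The first 3 are S-phase genes: Mcm6, a subunit of the replicative helicase (chr1:128359706-128359825, minus strand), Rrm1, the large subunit of ribonucleotide reductase (chr7:102441575-102441694, plus strand), and Slbp, the protein that binds the stem-loop of histone mRNA (chr5:33652575-33652694, minus strand).
Mcm6: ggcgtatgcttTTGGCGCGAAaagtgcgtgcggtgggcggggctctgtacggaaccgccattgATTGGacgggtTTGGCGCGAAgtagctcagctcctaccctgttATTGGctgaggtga
Rrm1: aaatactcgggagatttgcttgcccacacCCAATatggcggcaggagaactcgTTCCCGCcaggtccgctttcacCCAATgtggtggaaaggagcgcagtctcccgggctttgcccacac
Slbp: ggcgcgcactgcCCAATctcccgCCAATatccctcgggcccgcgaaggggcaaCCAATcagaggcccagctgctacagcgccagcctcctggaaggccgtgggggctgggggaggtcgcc
Mcm6 holds 4 E2F words as 2 pairs that overlap on opposite strands, Rrm1 holds 1, and Slbp holds CCAAT words only. No E2F word was found in the whole 300-base window of Mcm2, Pcna, Tyms, Slbp, Dut, Tk1 and Fen1. The next 5 are G2/M genes: Cdk1, the kinase that starts mitosis (chr10:69352913-69353032, minus strand), Cdc20, which activates the ubiquitin ligase that ends it (chr4:118437344-118437463, minus strand), Top2a, the topoisomerase that untangles sister chromatids (chr11:99024190-99024309, minus strand), Mki67, which coats mitotic chromosomes (chr7:135716380-135716499, minus strand), and Cenpa, the histone H3 variant of centromeres (chr5:30666766-30666885, plus strand).
Cdk1: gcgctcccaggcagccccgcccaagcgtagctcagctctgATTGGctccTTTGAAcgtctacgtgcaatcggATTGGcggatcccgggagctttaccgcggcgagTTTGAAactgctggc
Cdc20: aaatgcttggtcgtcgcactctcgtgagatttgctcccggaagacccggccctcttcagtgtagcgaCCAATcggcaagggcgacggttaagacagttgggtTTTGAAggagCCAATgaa
Top2a: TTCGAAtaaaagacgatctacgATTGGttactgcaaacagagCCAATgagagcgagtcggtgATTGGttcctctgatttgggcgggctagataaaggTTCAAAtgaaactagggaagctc
Mki67: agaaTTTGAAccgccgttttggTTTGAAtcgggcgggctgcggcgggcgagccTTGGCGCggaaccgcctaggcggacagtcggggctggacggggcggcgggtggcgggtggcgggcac
Cenpa: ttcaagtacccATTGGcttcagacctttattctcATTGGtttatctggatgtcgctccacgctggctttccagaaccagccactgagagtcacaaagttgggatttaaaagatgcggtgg
Cdk1, Top2a and Mki67 each show 2 CHR words here, Cdc20 shows 1, and Cenpa shows none in these 120 bases and 1 behind its start.

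Barcodes with transcripts of the 38 genes, called dividing here by these transcripts alone, were sought in every class at 1 depth. For each barcode with at least 1000 UMIs, the chance that 1000 of its UMIs drawn without replacement hold at least 3 UMIs of the 38 genes was computed exactly, and the mean of that chance over a class is the share given here. Melanoma-like barcodes had the highest share, 54.4% (95% interval 46.1 to 62.5) in the control and 53.5% (47.1 to 59.8) in the library labelled knockout. The sort for CD45 would remove such cells, and their median depth was 50505 UMIs in the control against 3179, with 117 of 367 barcodes under 1000 UMIs in the library labelled knockout. Among immune classes, conventional type 1 dendritic cells (cDC1), which present antigen to CD8 T cells, came next with 36.4% (28.3 to 45.1, n = 136 barcodes) and 29.8% (21.8 to 38.8, n = 120). Macrophages had 22.4% (19.7 to 25.2, n = 933) and 26.7% (24.1 to 29.4, n = 1122), and regulatory T cells, which restrain other T cells, 18.0% (11.4 to 26.4, n = 113) and 17.5% (10.4 to 26.7, n = 93). CD8 T cells had 12.5% in each library, conventional type 2 dendritic cells (cDC2) 10.9% and 15.5%, and NK cells 7.05% and 9.79%.

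Low shares were found in monocytes (2.88% and 3.09%), other CD4 T cells (3.40% and 6.17%), migratory dendritic cells (5.29% and 8.79%), B cells (2.46% and 1.97%) and plasmacytoid dendritic cells (pDC, 0.309% and 0.404%). Neutrophils served as the background class, with 0.560% (0.0484 to 2.24) of the 294 control barcodes that reached 1000 UMIs, out of 458 with a median depth of 1126 UMIs. Only 23 neutrophils of the library labelled knockout could be thinned, so they were not compared. Without thinning the shares rose with depth, to 62.2% and 68.1% in macrophages (median 8443 and 9155 UMIs) and to 27.4% and 33.4% in T cells (median 2371 and 2756). Neighbours in the order were often within counting error of each other. Regulatory T cells exceeded CD8 T cells by 5.50 percentage points (-1.18 to 14.0) in the control and 4.98 (-2.41 to 14.4) in the library labelled knockout, and NK cells differed from T cells by -1.71 (-4.67 to 2.29) and -0.373 (-4.38 to 4.89). The plot of shares shows this order.

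**Figure D1:**
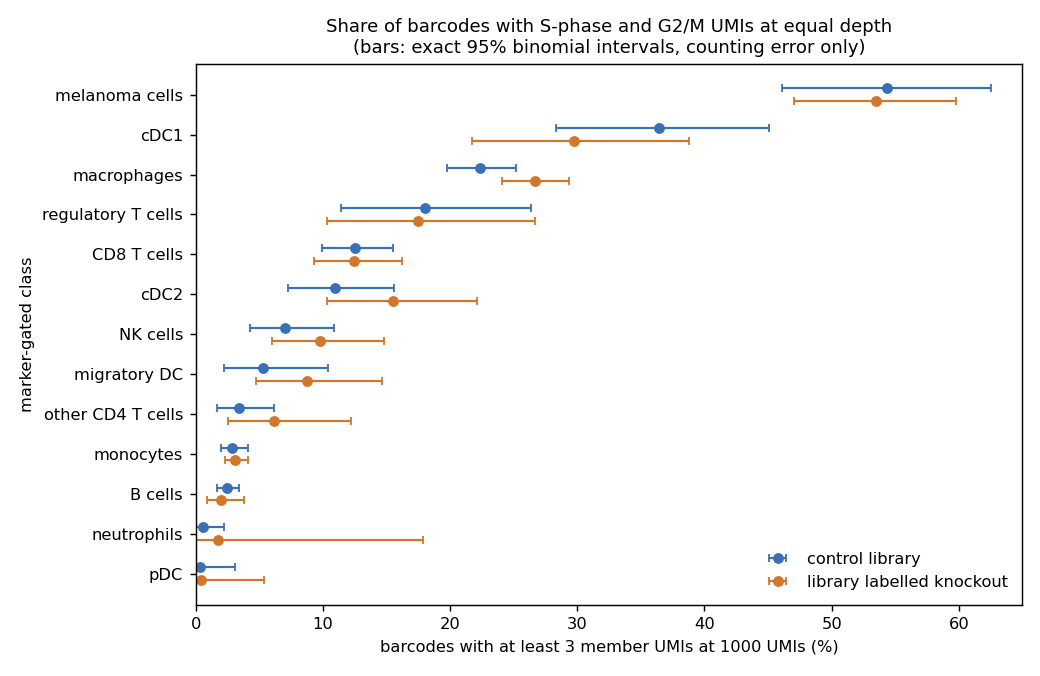
Share of barcodes with at least 3 UMIs of the 38 genes at 1000 UMIs (percent, x axis) in each marker-gated class (y axis), control in blue and library labelled knockout in orange, with exact binomial 95% intervals that cover counting error only. Melanoma cells, cDC1 and macrophages stand at the top with shares of at least 22.4%, and pDC and control neutrophils stand at or under 0.560%.

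The gap between macrophages and monocytes was wide. It was 19.5 percentage points (16.7 to 22.4) in the control and 23.6 (20.9 to 26.4) in the library labelled knockout. All 17 S-phase and all 21 G2/M genes were higher in macrophages than in monocytes in each library. The median fold of the S-phase genes was 3.47 in the control and 4.56 in the library labelled knockout, and that of the G2/M genes 5.74 and 6.09. Tk1, the thymidine kinase that feeds thymidine back into DNA synthesis, differed most among S-phase genes, with 49.6 against 8.31 CPM in the control and 63.3 against 5.66 in the library labelled knockout. Slbp differed least, with 75.2 against 64.7 CPM (1.16-fold) and 70.2 against 60.5 (1.16-fold). Cenpa was the lowest of the G2/M genes, with 143 against 95.5 CPM in the control and 139 against 104 in the library labelled knockout. In these 2 genes the monocyte level came closest to the macrophage level in each library. The 2 classes were divided by which marker score was higher, and 378 of 2046 control barcodes (18.5%) and 399 of 2870 in the library labelled knockout (13.9%) lay within 0.1 of that line. Away from it, the macrophage shares were 25.6% and 29.9% and the monocyte shares 2.25% and 2.98%. Macrophage markers summed to 16371 and 18167 CPM in macrophages, and T-cell markers to 22.3 and 60.6.

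**Figure D2:**
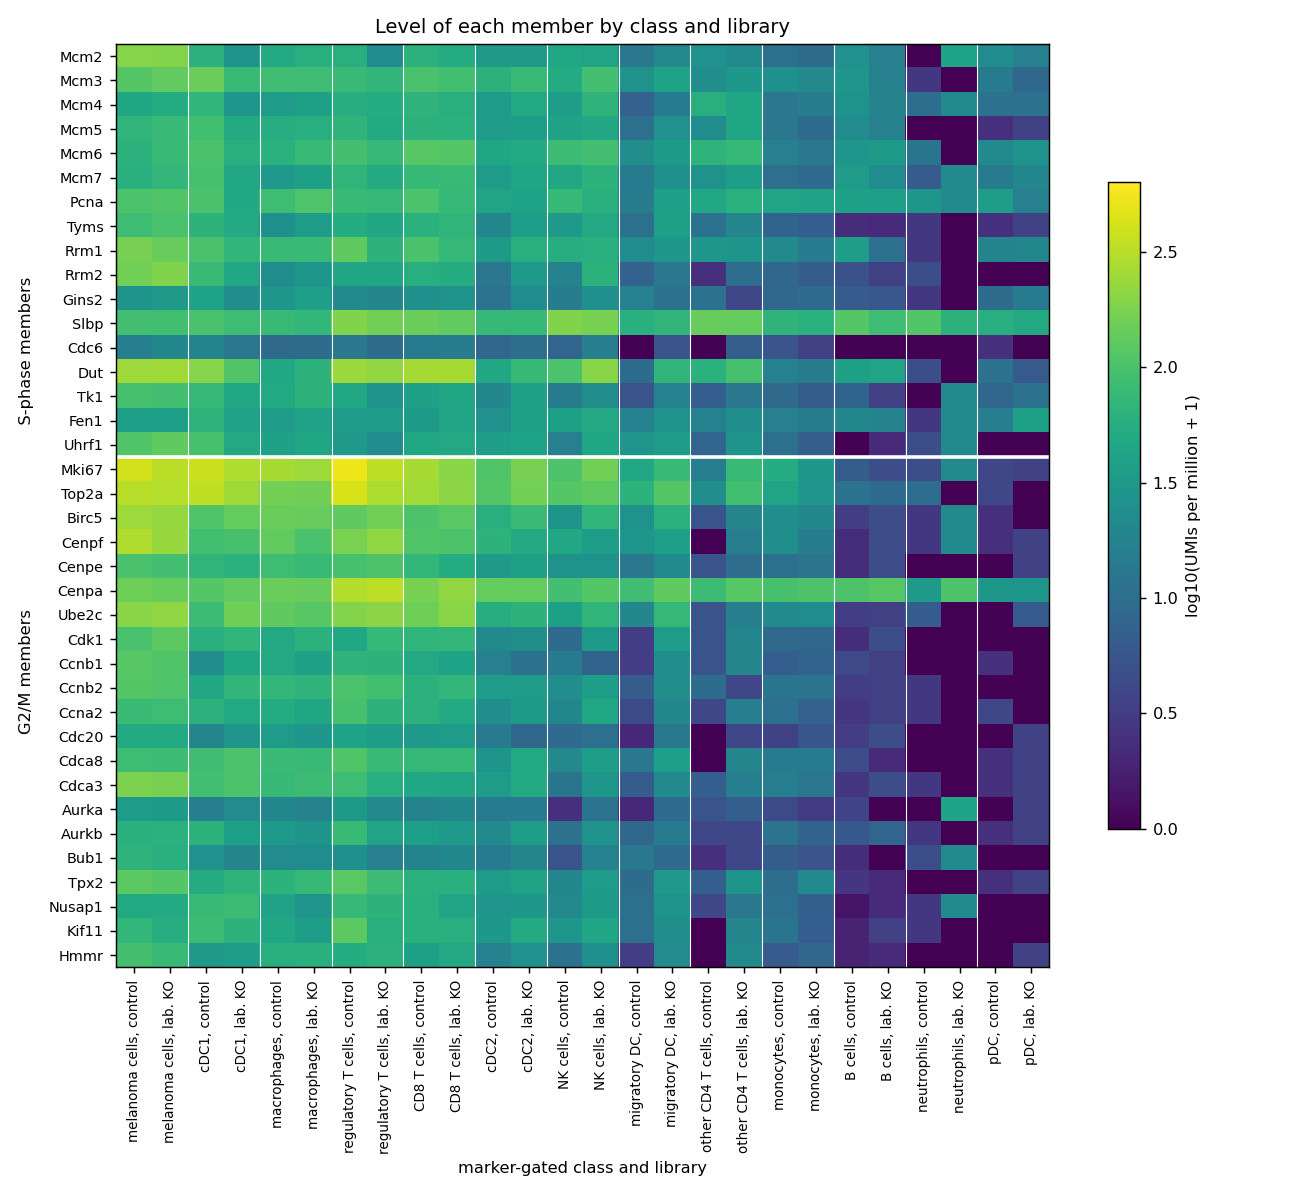
Level of each of the 38 genes (rows, S-phase above the white line and G2/M under it) in each marker-gated class and library (columns), as log10 of CPM plus 1. Rows of Slbp and Cenpa stay bright in monocytes, where most other rows are darker, and the S-phase block of control cDC1 is brighter than that of cDC1 in the library labelled knockout.

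Summed levels placed the classes on either side of equal S-phase and G2/M output. Each mRNA molecule is counted from its 3' end, so these CPM sums are not scaled by gene length. In macrophages the S-phase genes summed to 809 CPM (790 to 827) in the control and 924 (908 to 941) in the library labelled knockout, and the G2/M genes to 1751 (1724 to 1779) and 1631 (1610 to 1653). Regulatory T cells had the highest G2/M sum among immune classes, 2900 CPM (2751 to 3055) and 2429 (2288 to 2577), which was 2.26 and 2.35 times their S-phase sum. CD8 T cells had a G2/M to S-phase ratio of 1.33 (1.27 to 1.40) and 1.37 (1.30 to 1.45), and monocytes 1.35 and 1.38. In 4 classes the S-phase sum was the larger in each library. The ratio was 0.751 and 0.851 in NK cells, 0.324 and 0.777 in other CD4 T cells, 0.365 and 0.543 in B cells, and 0.205 and 0.256 in pDC.

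Slbp held a large part of the S-phase UMIs in several of the low classes. It made up 59.0% of the 100 S-phase UMIs of control neutrophils, 24.2% and 21.1% of those of pDC, 27.1% and 26.04% in B cells, 25.5% and 20.54% in other CD4 T cells, and 22.6% and 24.4% in monocytes. In NK cells it held 21.7% in the control and 14.4% in the library labelled knockout, where Dut led with 17.5%. In control macrophages the share of Slbp was 9.30%, and the leading genes were Mcm3, another helicase subunit (10.8%), and Pcna, the sliding clamp of DNA polymerases (10.5%). Pcna led in macrophages of the library labelled knockout with 11.6%. Dut, the dUTPase that keeps uracil out of DNA, led in CD8 T cells (19.4% and 20.6%), melanoma cells (14.6% and 14.0%) and cDC1 (13.2% and 12.6%). At least 2 UMIs of 1 phase, counted apart, were found in 14.2% of control macrophages for S phase, in 19.0% for G2/M and 5.22% for both, and 17.4%, 22.3% and 6.22% in the library labelled knockout. Among B cells the values were 7.13% for S phase, 1.64% for G2/M and 0.240% for both in the control, and 3.75%, 2.11% and 0.0749% in the library labelled knockout.

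**Figure D3:**
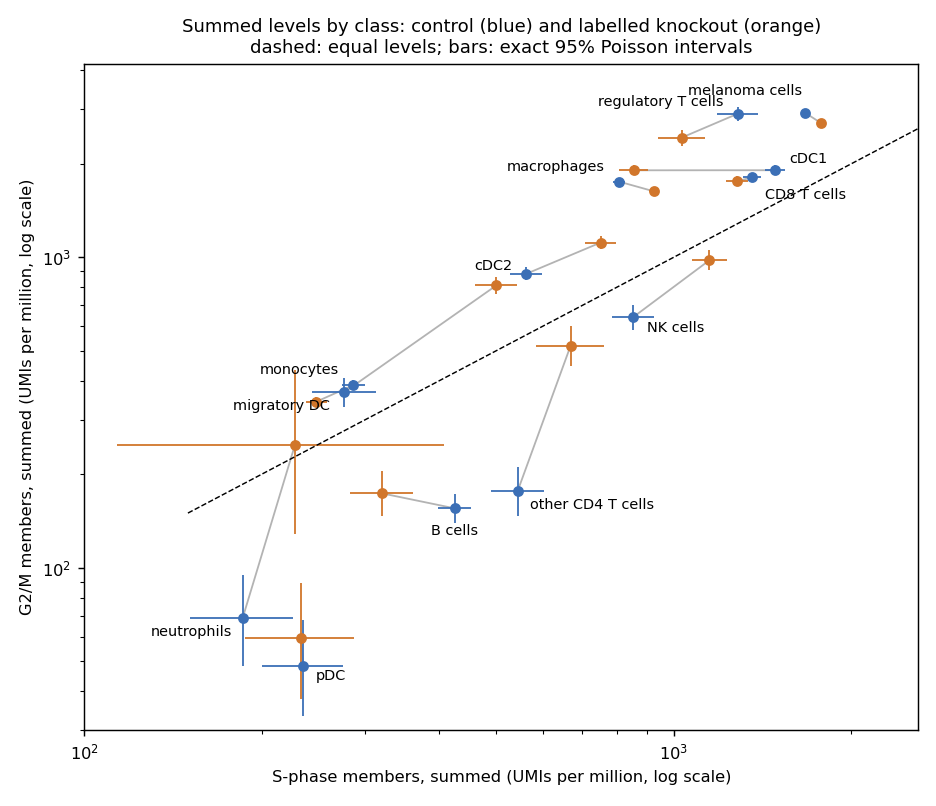
Summed G2/M level against summed S-phase level (CPM, both axes logarithmic) for each class, control in blue joined to the library labelled knockout in orange, with exact Poisson 95% intervals and a dashed line of equal levels. NK cells, other CD4 T cells, B cells and pDC lie under the line in both libraries, and cDC1 move left at the same height, from 1485 to 855 CPM for S phase.

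The class in which a gene was highest differed between the S-phase and the G2/M genes. Leaving melanoma cells aside, 15 of 21 G2/M genes were highest in regulatory T cells in each library. Mki67 reached 541 CPM there in the control and 339 in the library labelled knockout, Top2a 427 and 282, and Cenpa 299 and 330. Of the 17 S-phase genes, 12 were highest in cDC1 in the control, 3 in CD8 T cells and 2 in regulatory T cells. None was highest in cDC1 in the library labelled knockout, where CD8 T cells and NK cells led for 6 genes each and macrophages for 5. Dut was highest in CD8 T cells in both libraries, with 263 CPM in each. Melanoma cells, where included, led for 6 and 10 S-phase genes and for 13 and 15 G2/M genes. Their Mcm2 level was 194 and 189 CPM, and their Rrm2 level, the small subunit of ribonucleotide reductase, 160 and 187.

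Within a class, the S-phase and G2/M genes lay in the same barcodes to very different degrees. Each S-phase gene was compared between barcodes with at least 2 G2/M UMIs and barcodes with none, and each G2/M gene the other way round. Barcodes were weighted by the chance of either state at 1000 UMIs. A deeper barcode counted as without can therefore hold such UMIs among those not drawn. In T cells, which include the dividing T cells, every one of the 16 S-phase genes measured was higher in barcodes with G2/M UMIs in each library, with a median fold of 5.43 in the control and 3.90 in the library labelled knockout. All 21 G2/M genes were likewise higher in T cells with S-phase UMIs, by a median of 7.79 and 6.01. Monocytes showed the widest median folds, 11.5 and 6.25 for S-phase genes, from an expected 32.3 and 55.4 barcodes with G2/M UMIs, and 15.6 and 9.77 for G2/M genes, from an expected 31.9 and 42.2 barcodes with S-phase UMIs. In macrophages the medians were only 1.92 and 1.72 for S-phase genes and 1.77 and 1.56 for G2/M genes, and in melanoma cells 1.92 and 1.80 and 1.92 and 1.77.

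The macrophage medians covered a wide range of single genes. Rrm2 was the S-phase gene with the highest fold. It had 62.0 CPM with and 4.69 without G2/M UMIs in the control (13.2-fold), and 62.2 and 10.4 in the library labelled knockout (5.97-fold). Tk1 followed with 7.18-fold and 4.95-fold, Tyms, the thymidylate synthase, with 6.17-fold and 4.61-fold, and Rrm1 with 4.59-fold and 4.02-fold. Mcm2, Mcm4 and Mcm6 of the helicase were lower. Mcm2 had 49.4 against 46.4 CPM in the control and 56.6 against 51.4 in the library labelled knockout, and Mcm6 had 59.5 against 55.1 and 76.6 against 70.8. Mcm4 was 1.02-fold and 1.09-fold, and Slbp 1.25-fold and 1.09-fold. Between them lay Dut with 2.37-fold and 2.17-fold, Fen1, the flap endonuclease, with 2.43-fold and 2.39-fold, and the helicase subunit Mcm7 with 2.29-fold and 1.80-fold. Mcm2, Mcm4 and Mcm6 were thus nearly as abundant in macrophages with no G2/M UMI among 1000 as in those with at least 2. Macrophages of the former kind can still hold G2/M UMIs among those not drawn. Levels of Mcm2, Mcm4 and Mcm6 over all macrophages were 2.67 to 6.49 times those in monocytes.

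Among the G2/M genes of macrophages, Aurkb, the kinase that corrects chromosome attachments (3.48-fold and 3.16-fold), Top2a (3.43-fold and 3.23-fold) and Cdk1 (3.36-fold and 2.89-fold) were highest with S-phase UMIs. Cenpa (0.902-fold and 0.823-fold), Ccnb2, a cyclin partner of Cdk1 (0.917-fold and 0.953-fold), and Cdc20 (0.941-fold and 0.820-fold) were at or under equality. Over 10 random draws to 1000 UMIs the fold of these 3 genes crossed 1 in each library, so no direction is given for them. In T cells, the folds of Rrm2 were 49.7 and 16.3, and the lowest were those of Slbp (2.11 and 1.63) and Cenpa (2.01 and 2.22). Barcodes with UMIs of the other phase were also deeper, with medians of 11762 against 7875 UMIs in control macrophages and 7460 against 2321 in control T cells. The part of depth in these folds, and in their differences between classes, was not tested.

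**Figure D4:**
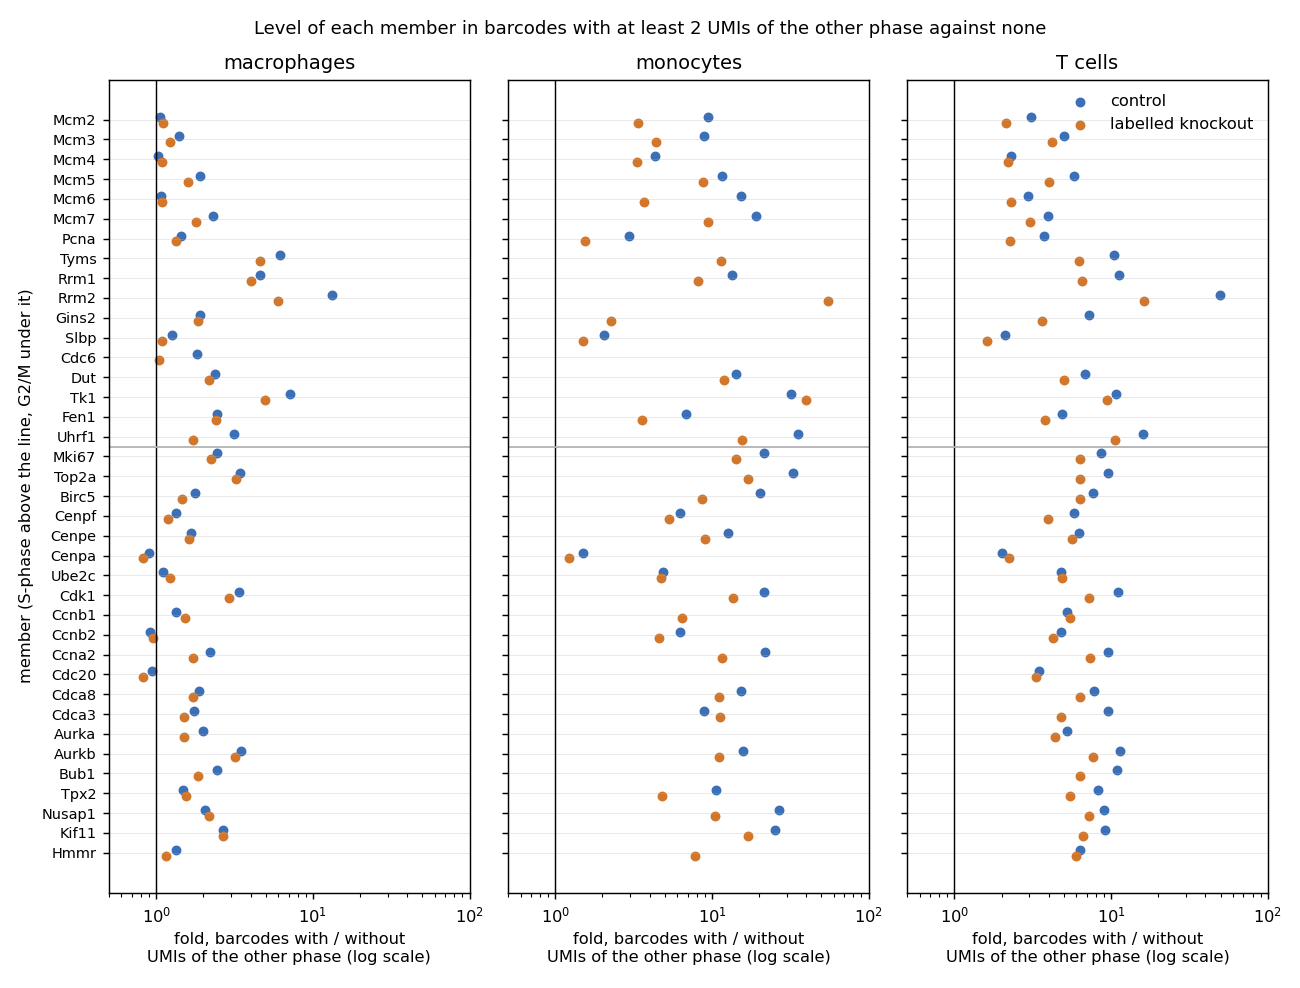
Fold of each gene (x axis, logarithmic) between barcodes with at least 2 UMIs of the other phase among 1000 and barcodes with none. Macrophages, monocytes and T cells are shown, control in blue and library labelled knockout in orange, for genes with at least 50 UMIs. Points of macrophages lie near 1 for Mcm2, Mcm4, Mcm6 and Slbp and far right for Rrm2, Tk1, Tyms and Rrm1, while nearly all points of T cells lie above 2.

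Between the libraries, macrophages showed small shifts over all barcodes, which differed between the host sexes. Over all macrophages, none of the 38 genes passed 1.5-fold in either direction, a limit that 1.47% of 11346 genes tested passed upwards and 0.925% downwards. None did so in monocytes and macrophages as a single group either (2.29% of genes higher, 0.749% lower). The median log2 ratio of labelled knockout over control, with 5 CPM added to each level, was 0.19 for the S-phase genes, 15 of 17 above 0, and -0.11 for the G2/M genes, 5 of 21 above 0, against -0.02 for all genes. Dut had 45.0 CPM (40.8 to 49.7) in the control and 63.3 (59.2 to 67.7) in the library labelled knockout, 1.41-fold (1.25 to 1.59), and Pcna 84.9 and 107 (1.26-fold, 1.15 to 1.37). Mcm3 (87.4 and 84.8 CPM), Rrm1 (78.1 and 78.5) and Slbp (75.2 and 70.2) differed by less than counting error. Mki67 had 269 and 247 CPM and Cenpf, a kinetochore protein, 132 and 99.2 (0.754-fold, 0.697 to 0.816). Nusap1, a spindle microtubule protein, had the lowest ratio, with 40.1 and 27.9 CPM (0.696-fold, 0.601 to 0.806). Top2a (163 and 156 CPM), Birc5, the survivin subunit of the Aurkb complex (142 and 140), and Cenpa (143 and 139) lay within counting error.

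The summed S-phase level of macrophages was 1.14 times the control (1.11 to 1.18), the G2/M level 0.931 times (0.913 to 0.951), and the G2/M to S-phase ratio was 2.17 in the control and 1.76 in the library labelled knockout. The share of barcodes with at least 3 UMIs was nonetheless 4.31 percentage points higher in the library labelled knockout (0.565 to 8.003). Barcodes with exactly 3 UMIs made up 4.24% and 6.41%, and for at least 5 UMIs the difference was 0.702 points (-2.45 to 3.81). At 10 or more UMIs the share was 4.80% in the control and 3.99% in the library labelled knockout. With the stricter gate the difference of 4.46 points had an interval that includes 0 (-0.257 to 9.05). Counting each barcode alike rather than by its depth gave a G2/M level 1.06 times the control. The values also differed between the 2 kinds of barcode told apart by Xist and Y-linked UMIs. These differed in depth, with macrophage medians of 7647 UMIs (control) and 9565.5 (labelled knockout) for Xist barcodes. For Y-linked ones the medians were 9571 and 12001. The part of depth in this split was not tested. The share difference was -2.57 points (-8.98 to 3.25) among barcodes with Xist and no Y-linked UMI, and 15.4 points (8.08 to 22.7) among those with a Y-linked UMI and no Xist, where 41.0% of 244 barcodes of the library labelled knockout passed. The S-phase level was 1.00 times the control (0.951 to 1.06) in the first kind and 1.35 times (1.30 to 1.41) in the second, and the G2/M level 0.602 times (0.581 to 0.625) and 1.31 times (1.27 to 1.35). In neither kind did the S-phase and G2/M sums shift in opposite directions beyond counting error. The G2/M to S-phase ratio was 2.62 in the control and 1.57 in the library labelled knockout among Xist barcodes. Among Y-linked barcodes it was 2.09 and 2.02. By single genes, 12 of 21 G2/M genes were lower past 1.5-fold among Xist macrophages, and no S-phase gene passed. Among Y-linked ones 5 of 17 S-phase and 3 of 21 G2/M genes were higher past 1.5-fold, and none was lower. The share of all genes past 1.5-fold was not computed within either kind.

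Other replication and mitosis genes, taken from lists of 35 each, showed medians of the same signs. In macrophages the 35 further replication genes had a median log2 ratio of 0.14, with 29 above 0, and 34 further mitosis genes -0.09, with 9 above 0. No gene of either list passed 1.5-fold. Of the 19 cyclins, brakes and drivers of G1 measured, 10 were above 0. Cdkn1a, the p21 inhibitor (173 to 245 CPM, log2 ratio 0.49), and Ccnd2, a D-type cyclin (64.7 to 91.9 CPM, 0.48), were the highest. Cdkn1b, the p27 inhibitor (45.3 to 35.1 CPM, -0.33), and Btg1, an antiproliferative factor (485 to 399 CPM, -0.28), were the lowest. The 20 interferon-stimulated genes, by contrast, had a median log2 ratio of 1.64 in macrophages, with 17 past 1.5-fold. Melanoma cells had medians of 0.19 for S-phase and -0.09 for G2/M genes, also with none of 38 past 1.5-fold (0.348% of genes higher, 0.0957% lower), and their interferon median was 0.29.

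In cDC1 the S-phase genes were lower in the library labelled knockout and the G2/M genes as a sum were not. Of the 17 S-phase genes, 13 were lower past 1.5-fold in the library labelled knockout and none was above the control, where 4.92% of 8352 genes tested were lower and 3.95% higher. The median log2 ratio was -0.76 for S-phase genes, 0.19 for G2/M genes and -0.03 for all genes. Dut had 196 CPM (175 to 219) in the control and 107 (91.0 to 126) in the library labelled knockout, 0.547-fold (0.448 to 0.667). Mcm3 had 142 and 75.6 CPM (0.531-fold, 0.418 to 0.671), Pcna 98.7 and 45.9 (0.465-fold, 0.343 to 0.625), and Uhrf1, which guides maintenance DNA methylation at the fork, 96.2 and 48.0 (0.499-fold, 0.370 to 0.669). Mcm4 was the lowest, with 69.3 and 29.0 CPM (0.418-fold, 0.285 to 0.603), followed by Mcm2 with 61.8 and 26.8 (0.434-fold, 0.290 to 0.637). Mcm5, Mcm6, Mcm7, Rrm2, Gins2, Tk1 and Fen1 lay between 0.467-fold and 0.638-fold.

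The 4 S-phase genes that did not pass were Tyms, Rrm1, Slbp and Cdc6, with log2 ratios of -0.32, -0.47, -0.21 and -0.40. Rrm1 had 98.1 and 69.2 CPM and Slbp 98.1 and 84.1. Of the G2/M genes, 14 of 21 were above 0, and 3 passed 1.5-fold. Ube2c, the E2 enzyme of the anaphase-promoting complex, had 81.2 and 150 CPM (1.85-fold, 1.48 to 2.32), and Ccnb1, cyclin B1, 22.5 and 44.5 (1.98-fold, 1.29 to 3.07). Aurkb went the other way, with 64.3 and 37.4 CPM (0.582-fold, 0.410 to 0.818). Mki67 (376 and 295 CPM, 0.785-fold) and Top2a (339 and 254, 0.748-fold) were lower beyond counting error without passing 1.5-fold, and Birc5 (107 and 136) and Cenpa (116 and 132) were not lower. Summed S-phase genes were at 1485 CPM (1425 to 1545) in the control and 855 (808 to 905) in the library labelled knockout, 0.576-fold (0.537 to 0.618), and summed G2/M genes at 1907 and 1906 CPM, 0.999-fold (0.949 to 1.05). The G2/M to S-phase ratio was 1.28 in the control and 2.23 in the library labelled knockout.

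By barcode, 30.2% of cDC1 in the control and 18.8% in the library labelled knockout had at least 2 S-phase UMIs, a difference of -11.4 percentage points (-21.5 to -0.733). For at least 2 G2/M UMIs the shares were 27.8% and 26.5% (difference -1.27, -12 to 9.67), and 16.3% and 10.0% had both. Of 34 further replication genes measured, 15 were lower past 1.5-fold and none was above 0, with a median of -0.54. Ung, the uracil DNA glycosylase (18.7 to 5.65 CPM), and Chaf1a, a chromatin assembly subunit (50.6 to 21.9 CPM), were the lowest, and Gins1 (-0.12) and Pola2 (-0.10) the highest. Among 32 further mitosis genes, 3 were lower and 0 higher past 1.5-fold, with a median of -0.14, from Cdca5 (-0.67) and Tacc3 (-0.64) to Pttg1 (0.53) and Cks2 (0.54). The depth of cDC1 barcodes was alike, with medians of 11234 and 11171 UMIs, and summed macrophage markers were at 137 and 151 CPM. T-cell markers were at 15.6 and 116 CPM, and their part in the result was not tested. Host sex was unequal, with 14 Xist and 96 Y-linked barcodes in the control and 86 and 23 in the library labelled knockout. Among Y-linked barcodes alone the S-phase median was -0.68 and the G2/M median -0.04.

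**Figure D5:**
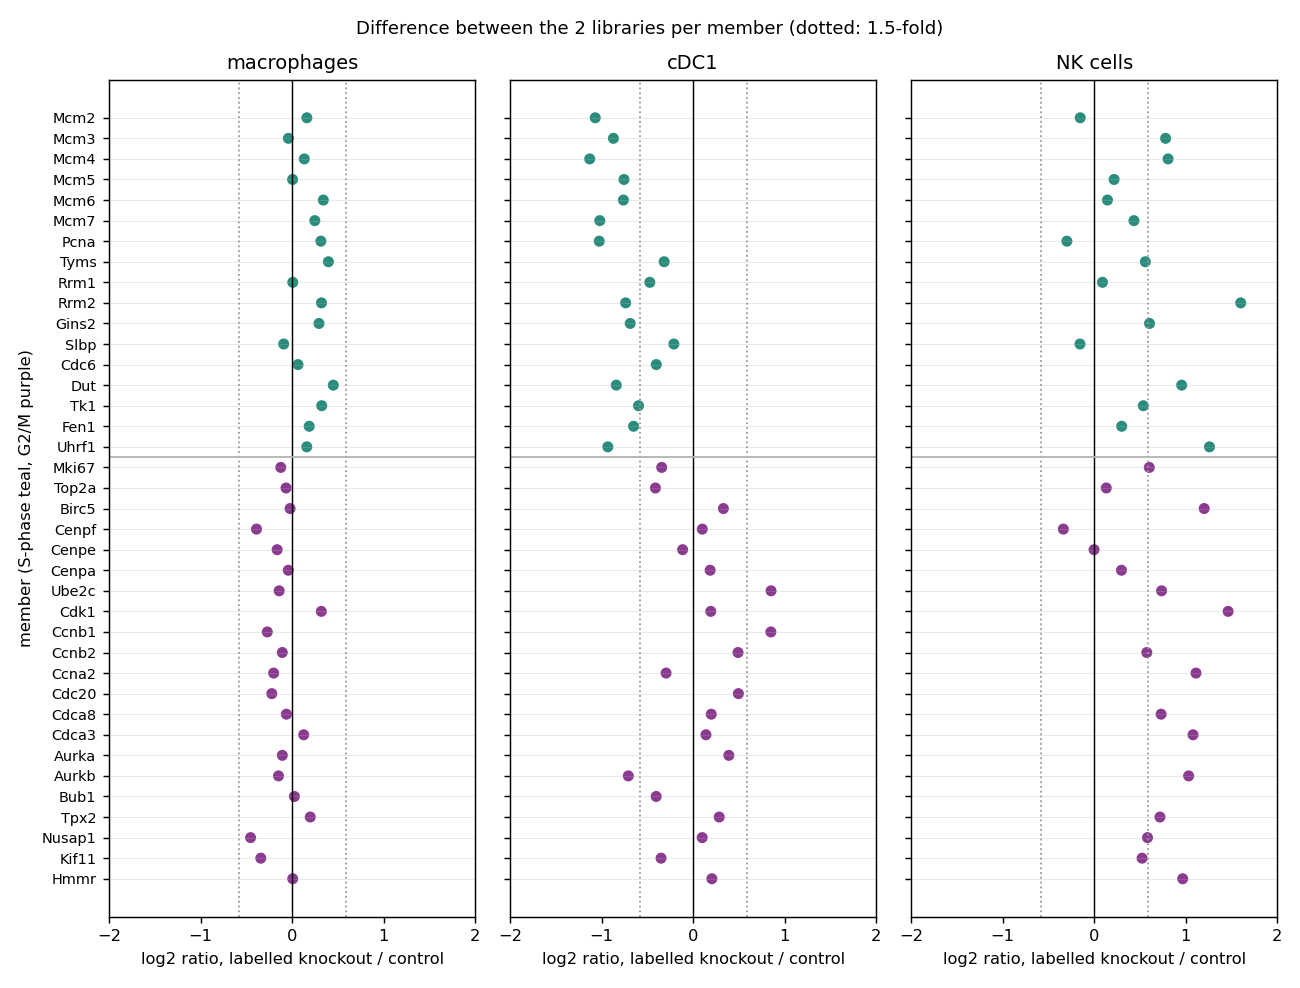
Log2 ratio of labelled knockout over control for each gene with at least 20 UMIs (x axis, 5 CPM added to each level, dotted lines at 1.5-fold) in macrophages, cDC1 and NK cells, S-phase genes in teal and G2/M genes in purple. All S-phase points of cDC1 lie left of 0, with 13 past the dotted line, whereas no point of macrophages, taken over both host sexes, passes it.

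Over all NK cells both S-phase and G2/M genes were higher in the library labelled knockout. In them 6 of 16 S-phase and 10 of 17 G2/M genes measured were higher past 1.5-fold and none was lower, against 6.56% of 7213 genes higher and 14.5% lower. The median log2 ratios were 0.49 and 0.72, against -0.13 for all genes. Dut had 101 and 201 CPM (1.99-fold, 1.49 to 2.67), Mcm3 51.3 and 91.7 (1.79-fold, 1.18 to 2.76) and Mki67 104 and 160 (1.54-fold, 1.14 to 2.09). Few barcodes carried these sums, since 1 barcode held 26.03% of the control's Mki67 UMIs and 20.2% in the library labelled knockout, and the share with at least 3 UMIs differed by 2.74 points (-2.36 to 8.30). The summed G2/M level of NK cells was 1.53 times the control (1.36 to 1.72) over all barcodes but 0.925 times (0.785 to 1.09) among Xist barcodes, where the S-phase level was 646 CPM (525 to 787) in the control and 1263 (1176 to 1355) in the library labelled knockout. In T cells as a whole no gene passed 1.5-fold (2.58% of genes higher, 1.49% lower), with medians of 0.03 for S-phase and 0.17 for G2/M genes, and the share of dividing barcodes was 8.76% and 10.2% (difference 1.40 points, -0.950 to 3.88). By host sex the T-cell G2/M level was 2.45 times the control (2.26 to 2.66) among Xist barcodes and 0.858 times (0.790 to 0.932) among Y-linked ones, with share differences of 3.46 points (0.00578 to 6.66) and 0.894 (-5.98 to 10.4). CD8 T cells over all barcodes likewise had none past 1.5-fold (2.63% higher, 4.02% lower), with medians of -0.04 and -0.02 and a share difference of -0.0422 points (-4.23 to 4.42). Among Xist CD8 T cells (139 and 289 barcodes) the G2/M level was 1.62 times the control (1.46 to 1.81). The S-phase level there was 1.01 times the control (0.906 to 1.12). Y-linked CD8 T cells, 237 in the control and 34 in the library labelled knockout, were not compared.

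The remaining classes gave thinner data. In regulatory T cells 3 of 15 S-phase genes were lower and none higher, and of 20 G2/M genes 1 was higher and 5 lower (9.50% of genes higher, 11.9% lower). Mki67 there was 0.626-fold (0.510 to 0.766) and Top2a 0.659-fold (0.525 to 0.825), and 1 barcode held 26.6% of the Top2a UMIs in the library labelled knockout. In migratory dendritic cells 7 of 16 S-phase and 15 of 19 G2/M genes were higher and none lower (13.3% of genes higher, 4.41% lower), with Ube2c at 18.7 and 72.4 CPM. There, 1 barcode held 47.1% of the Ube2c UMIs in the control and 38.1% in the library labelled knockout. Macrophage markers summed to 55.0 and 336 CPM in this class and T-cell markers to 143 and 585, and their part in the result was not tested. In cDC2 6 of 17 S-phase and 3 of 21 G2/M genes were higher and none lower (5.22% higher, 3.91% lower). They include Rrm1 (32.6 and 57.4 CPM), Dut (47.2 and 73.9), Cdca8, a subunit of the Aurkb complex (27.0 and 49.5), and Kif11, a spindle motor (30.3 and 48.8). T-cell markers in cDC2 were at 44.9 and 196 CPM, and 33.2% and 20.1% of barcodes were free of markers of other lineages, whose part was not tested either. Host sex was unequal in these classes. Regulatory T cells had 32 Xist and 52 Y-linked barcodes in the control and 66 and 12 in the library labelled knockout. Migratory dendritic cells had 19 and 75 against 105 and 17, and cDC2 41 and 131 against 132 and 11. The libraries were not compared by host sex in them.

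In monocytes none of 17 S-phase genes passed 1.5-fold, while among 21 G2/M genes Tpx2, a spindle assembly factor, was higher (9.24 and 20.8 CPM) and Mki67 lower (52.7 and 29.9), against 4.46% of genes higher and 1.79% lower. The monocyte G2/M level was 2.37 times the control (2.05 to 2.75) among Xist barcodes and 0.490 times (0.420 to 0.569) among Y-linked ones. Few dividing barcodes lay behind these sums. Among Xist barcodes an expected 4.26 of 232 were dividing in the control and 34.1 of 1199 in the library labelled knockout. Among Y-linked ones the numbers were 17.1 of 478 and 1.34 of 112. The intervals of these ratios do not cover the spread between barcodes. In B cells 2 of 11 S-phase genes were lower and none of 2 G2/M genes passed (3.12% higher, 7.41% lower). In other CD4 T cells 2 of 10 S-phase and 2 of 3 G2/M genes were higher (7.85% higher, 11.3% lower), and among Xist barcodes their G2/M level was 3.62 times the control. Those Xist barcodes included an expected 2.04 dividing ones in the control and 5.22 in the library labelled knockout. In pDC 1 of 5 S-phase genes was higher, Fen1, and 1 lower, Pcna (6.38% higher, 11% lower). How far the UMIs of the 38 genes were concentrated in few barcodes differed by class. In monocytes the 5% of barcodes with most held 63.8% in the control and 56.4% in the library labelled knockout. In T cells they held 75.5% and 74.0%, but in B cells 18.7% and 20.8%, and in pDC 18.6% in each library.

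Other transcripts differed between dividing and other macrophages. Barcodes expected to show at least 3 UMIs of the 38 genes, 209 in the control and 299 in the library labelled knockout, were compared with those expected to show none, 458 and 474. Dividing macrophages had more of the C1q transcripts, with 9059 against 5949 CPM in the control (1.52-fold) and 10389 against 7607 in the library labelled knockout (1.37-fold). C1qa, C1qb and C1qc were also among the markers that placed barcodes in the macrophage class. Their MHC class II genes were lower, with 7985 against 12323 CPM in the control (0.648-fold) and 2611 against 7917 in the library labelled knockout (0.330-fold), in 6 of 6 genes in each library. The 20 interferon-stimulated genes summed to 1499 against 2290 CPM in the control (0.655-fold) and 2608 against 5648 in the library labelled knockout (0.462-fold). Of these, 18 and 20 genes were lower. The interferon sum was also lower in dividing cDC1 (0.395-fold and 0.605-fold) and monocytes (0.638-fold and 0.556-fold). It was lower in dividing CD8 T cells (0.574-fold and 0.608-fold) and melanoma cells (0.557-fold and 0.711-fold) as well. Within depth ranges, monocytes had 0.646-fold in the control and 0.960-fold and 1.17-fold in the library labelled knockout.

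Dividing macrophages were deeper, with medians of 11951 against 7436 UMIs and 14602 against 8190, and had more mitochondrial UMIs, 5.22% against 4.45% and 4.89% against 4.09%. Within macrophages of 1000 to 5000, 5000 to 10000 and 10000 to 20000 UMIs, the interferon fold was 0.407, 0.633 and 0.728 in the control and 0.363, 0.346 and 0.487 in the library labelled knockout. The C1q and MHC class II folds were not computed within depth ranges, and the part of depth in them was not tested. Before doublet removal, 11.8% of the dividing and 8.05% of the other control macrophages had been called doublets, and 9.68% and 6.74% in the library labelled knockout. Monocytes with member UMIs were the opposite for MHC class II, 2.37-fold and 2.31-fold higher in 6 of 6 genes, from an expected 30.2 and 47.0 barcodes. Of their MHC class II UMIs, 5 barcodes held 34.2% and 36.0%. Doublet calls before removal were 10.1% against 8.41% in control monocytes, and 11.6% against 3.74% in the library labelled knockout. In dividing cDC1 MHC class II was 0.777-fold and 0.829-fold, in CD8 T cells 0.969-fold and 6.61-fold, and in melanoma cells 0.405-fold and 2.14-fold. In dividing T cells the interferon sum was 0.551-fold and 0.728-fold, but within depth ranges it was 0.895-fold and 1.11-fold in the control and 1.25-fold and 0.712-fold in the library labelled knockout, so no direction is given for them.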

How the data were processed

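The authors deposited whole-number UMI counts, not normalized, from Cell Ranger 3.0.1 with the mm10 build, per the submitters' processing notes. The annotation is not given in the sources used here. Gene positions come from GENCODE M21 (GRCm38). The genes and lists were chosen with earlier results of these data known, and the scoring rule of the marker gate was set after the data were seen.

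Barcodes entered with 200 or more genes and a mitochondrial share of up to 10%. Scrublet scores (scanpy 1.11.5) were ranked in each library, and the highest were removed at 0.8% per 1000 barcodes (481 and 294 barcodes). Each barcode took the class with the highest mean marker score and at least 2 of its markers, without Lyz2 or the interferon list. Regulatory, CD8 and other CD4 T cells needed a Foxp3, Cd8a or Cd8b1, or Cd4 or Cd40lg UMI, so deeper barcodes are favoured.

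UMIs were summed per class and library and expressed as CPM. Ratios used genes with at least 20 UMIs over both libraries, 5 CPM added, and classes of at least 75 barcodes per library. Passing means beyond 1.5-fold. Intervals are exact Poisson for levels, exact conditional for ratios, Clopper-Pearson for shares and Newcombe for differences of shares. The thinned share is the exact mean over all draws, because single random draws moved the share of small classes. Barcodes under 1000 UMIs, 350 and 443 of those kept, were left out of shares. All 38 genes may be named. Full values are given for the 6 genes of each phase with most UMIs, for those past 1.5-fold with at least 100 UMIs in a class, and for those that went against their phase. Of the other lists, the 2 highest and 2 lowest genes of a class are named. Of the 38 genes, 8 overlap a counted gene on the opposite strand (Mcm7, Gins2, Tk1, Fen1, Ube2c, Ccna2, Cdc20, Nusap1), and whether counting used strand is not given in the sources used here. The calculations were tested on simulated counts. Python 3.11.15 and scipy 1.17.1 were used.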

Additional observations from a re-analysis of the deposited data

Results flagged for a closer look

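The share of dividing barcodes differed between the libraries with opposite signs in barcodes of the 2 host sexes. In mononuclear phagocytes, the labelled knockout minus control difference was -3.35 percentage points among barcodes with Xist and no Y-linked UMI (n = 469 and 1862) and 14.0 among those with a Y-linked UMI and no Xist (n = 948 and 356). In macrophages the differences were -2.57 points (-8.98 to 3.25) and 15.4 (8.08 to 22.7). In monocytes they were 1.01 points (-1.78 to 2.57) and -2.38, each within counting error of 0. Whether the differences between the sexes exceed the spread between mice was not tested, since each pool is 1 library.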

How the results depend on the processing

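Over 18 results and 125 alternative settings, 74 values stayed within the counting error of the reported value, 46 moved beyond it and 5 changed direction. The S-phase result in cDC1 was in the first group under every setting run, with the summed ratio and the median log2 ratio kept below the control.

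With Xist barcodes only, macrophages had a share difference of -2.57 points, an S-phase ratio of 1.00, a G2/M ratio of 0.602, medians of 0.019 (S phase) and -0.65 (G2/M), G2/M to S-phase ratios of 2.62 (control) and 1.57 (labelled knockout), and a gap to monocytes of 17.1 points (labelled knockout). With Y-linked barcodes only, the same values were 15.4 points, 1.35, 1.31, 0.32, 0.33, 2.09, 2.02 and 39.8 points. The cDC1 G2/M median was then -0.041, and with Xist barcodes the NK medians were 0.77 and 0.36. The cDC1 median for Xist and the NK median for Y-linked barcodes were not run, since a library held too few of them.

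Weighting each barcode alike gave macrophage ratios of 1.19 (S phase) and 1.06 (G2/M), and G2/M to S-phase ratios of 1.92 and 1.71. A mitochondrial limit of 5% gave 1.18, 0.886, 2.50 and 1.87, with gaps of macrophages to monocytes of 14.4 and 19.3 points. A stricter gate, which dropped barcodes with any UMI of the defining markers of another lineage, gave 1.18, 0.908, 2.08 and 1.60. Without doublet removal the G2/M to S-phase ratio was 1.73 in the library labelled knockout, the macrophage S-phase median 0.23 and the cDC1 G2/M median 0.062.

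The gap between macrophages and monocytes was 25.99 and 32.9 points at 2000 UMIs, 36.0 and 41.0 without thinning, 23.6 and 29.1 for at least 2 UMIs, and 13.3 and 14.2 for at least 5. Away from the line between them, a setting chosen after seeing the data, it was 23.3 and 26.9. Without thinning the T-cell share difference was 6.04 points. With at least 100 UMIs the NK G2/M median was 0.30, over 3 genes. In depth ranges, also chosen after seeing the data, the interferon fold of dividing macrophages was 0.407 (control) and 0.363 (labelled knockout) at 1000 to 5000 UMIs, and 0.346 (labelled knockout) at 5000 to 10000. No cause of these changes was tested. No paired analysis was possible because there is 1 library per group.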
